A study of Mus musculus with 6 samples.

Results

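Ighv14, also called SM7, is a small family of V genes in the mouse immunoglobulin heavy-chain (Igh) locus on chromosome 12. Its members were taken as every sequence whose first V call, with the allele removed, names a gene beginning with Ighv14-, and this found 4 genes: Ighv14-1, Ighv14-2, Ighv14-3 and Ighv14-4. Together they made up 7144 of the 228609 sequences in the 6 libraries, or 3.12% (95% Wilson interval 3.05% to 3.20%). The sequences came from VDJ-seq, which captures joins of V, D and J genes from genomic DNA and reads them, so each sequence stands for a rearranged allele rather than for its RNA. The DNA came from B cells of the spleen, the mice were 12 weeks old and of the C57BL/6 strain, and all 6 libraries share this source as far as the labels state it. The libraries named 500ng, 1ug, 2_5ug and 5ug differed by starting DNA (500 ng, 1 µg, 2.5 µg and 5 µg), and Q5_vent and Q5_Q5 by the combination of DNA polymerases.

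Each group is 1 library, so no difference between libraries has a replicate check and no p-value is given. Whether the libraries came from the same mouse or DNA is not stated. Other cell types were removed with magnetic beads to leave B cells, and genomic DNA holds no expression markers with which to check that label. Depth ran from 8704 sequences (500ng) to 112320 (5ug), and the largest share that a gene with no sequence could still have was 0.0345% and 0.00267% in those libraries. All intervals are 95% intervals for counting error only.

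A heavy chain is assembled in the developing B cell by joining a D gene to a J gene and then a V gene to the DJ join. Bases are nibbled from the gene ends and others are added between them, so that the join, which encodes the antigen-contacting loop CDR3, can fall in or out of the reading frame. An out-of-frame join encodes no heavy chain and remains in a B cell only beside a productive join on the other allele, so its V genes are read as a record of recombination, whereas productive joins have also passed through selection of the encoded receptor.

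The 4 V exons are shown whole because they decide which Ighv14 gene a read can be assigned to and how the CDR3 begins. Each was read from deposited sequences that covered all 294 bases without a mismatch and carried a single-gene call (72 identical sequences for Ighv14-1, 323 for Ighv14-2, 246 for Ighv14-3 and 204 for Ighv14-4), with 1 distinct sequence per gene. Sequences with a mismatch were left out, so these counts do not show whether other variants were present. The capitals mark the last 6 bases, which lie after the conserved cysteine codon and are the V gene's contribution to the CDR3.

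Ighv14-1: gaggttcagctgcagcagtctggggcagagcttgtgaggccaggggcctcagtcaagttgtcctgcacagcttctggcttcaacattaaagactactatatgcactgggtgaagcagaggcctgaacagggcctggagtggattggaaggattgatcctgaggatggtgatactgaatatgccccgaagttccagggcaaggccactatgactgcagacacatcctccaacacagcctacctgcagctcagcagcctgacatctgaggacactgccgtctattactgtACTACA
Ighv14-2: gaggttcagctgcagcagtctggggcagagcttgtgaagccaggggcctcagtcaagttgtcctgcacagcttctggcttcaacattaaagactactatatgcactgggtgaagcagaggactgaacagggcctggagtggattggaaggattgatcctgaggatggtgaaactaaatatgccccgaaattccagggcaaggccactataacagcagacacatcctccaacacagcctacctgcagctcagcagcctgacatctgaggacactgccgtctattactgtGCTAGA
Ighv14-3: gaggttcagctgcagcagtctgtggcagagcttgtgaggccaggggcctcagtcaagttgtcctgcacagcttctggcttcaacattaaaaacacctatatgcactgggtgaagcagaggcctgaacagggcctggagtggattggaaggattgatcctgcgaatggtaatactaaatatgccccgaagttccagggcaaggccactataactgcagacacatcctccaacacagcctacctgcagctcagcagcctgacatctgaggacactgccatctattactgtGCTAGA
Ighv14-4: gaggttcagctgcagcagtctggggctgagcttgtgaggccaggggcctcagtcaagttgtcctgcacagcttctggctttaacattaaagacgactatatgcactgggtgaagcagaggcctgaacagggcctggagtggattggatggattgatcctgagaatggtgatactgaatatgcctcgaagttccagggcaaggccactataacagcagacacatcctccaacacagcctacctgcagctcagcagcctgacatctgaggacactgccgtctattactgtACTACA

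Ighv14-1 and Ighv14-4 end in ACTACA, which encodes threonine-threonine, and Ighv14-2 and Ighv14-3 end in GCTAGA, which encodes alanine-arginine. Counted from 1 at the first base of the exon, Ighv14-1 and Ighv14-2 differ at 9 positions, the last being A289G and C293G. Ighv14-1 and Ighv14-4 differ at 8 positions, the last being T213A, so their final 81 bases are identical. Ighv14-2 and Ighv14-3 differ at 13 positions, the last being G277A. Ighv14-3 and Ighv14-4 were the least alike, with 15 differences (94.9% identity).

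In the RefSeq annotation of GRCm38 the genes lie at chr12:113931953-113932246 (Ighv14-1), chr12:113994469-113994898 (Ighv14-2), chr12:114059845-114060273 (Ighv14-3) and chr12:114176438-114176867 (Ighv14-4). All are annotated as V segments. They are scattered rather than adjacent. Among V genes with at least 100 sequences, their D-proximal neighbours were Ighv7-1, Ighv11-1, Ighv11-2 and Ighv7-3 in the order of the family genes, and on the distal side Ighv4-1, Ighv4-2, Ighv9-1 and Ighv3-3.

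The shared ends set a limit on assignment. Calls that named several genes made up 50.5% of Ighv14-1 sequences (689 of 1365) and 8.93% of Ighv14-2 sequences (177 of 1982), while all 2060 Ighv14-3 and 1737 Ighv14-4 sequences had calls of 1 gene. For all V genes the share was 11.2%. No family call named a gene outside the family. In each several-gene call of the family the lower-numbered gene came first, so Ighv14-4 could not lead such a call. All 177 of these Ighv14-2 sequences also named Ighv14-3*02, an allele that stood alone in no call. All 2060 Ighv14-3 sequences named Ighv14-3*01. Of the Ighv14-1 sequences, 339 named its allele 01 together with Ighv14-4, and most of these (328) aligned over at most 81 V bases, the stretch those 2 genes share. Another 343 named the allele Ighv14-1*02 before Ighv14-2, with V alignments of at most 88 bases, and 304 of them had a CDR3 that began with GCT as Ighv14-2 does. The allele Ighv14-1*02 stood alone in 1 call, whereas Ighv14-1*01 stood alone in 675. Values for Ighv14-1 therefore include sequences that may belong to Ighv14-2 or Ighv14-4, and its main results are also given with calls resolved by the V gene end, which means calls of Ighv14-1*02 counted as Ighv14-2 and calls of Ighv14-1*01 with Ighv14-4 left out. The calls of Ighv14-2 with Ighv14-3*02 stay in Ighv14-2 under this resolution as well, so its values may include Ighv14-3 joins.

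By first call, Ighv14-3 was the most frequent gene with 2060 sequences (0.901% of all), followed by Ighv14-2 with 1982 (0.867%), Ighv14-4 with 1737 (0.760%) and Ighv14-1 with 1365 (0.597%). These placed them 38th, 41st, 49th and 58th among the 176 V genes in the files. The intervals of Ighv14-3 (0.863% to 0.941%) and Ighv14-2 (0.830% to 0.906%) overlap, and those of Ighv14-4 (0.725% to 0.796%) and Ighv14-1 (0.566% to 0.630%) lie below them and apart from each other. The order at the top rests on the calls of Ighv14-1*02. With these counted as Ighv14-2, a choice made after the values were seen, Ighv14-2 had 2325 sequences (1.02%) and Ighv14-1 had 683, beside 339 that could be either Ighv14-1 or Ighv14-4.

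The family's share was 2.77% in 500ng, 3.19% in 1ug, 3.16% in 2_5ug, 3.11% in 5ug, 3.24% in Q5_vent and 3.09% in Q5_Q5. The lowest value came from the smallest library, with an interval of 2.44% to 3.13% that overlaps those of the others. Ighv14-1 ranged from 0.517% (500ng) to 0.680% (1ug), and Ighv14-2 from 0.778% (Q5_Q5) to 0.928% (2_5ug). Ighv14-3 ranged from 0.747% (500ng) to 0.965% (Q5_vent), and Ighv14-4 from 0.678% (500ng) to 0.816% (Q5_vent). In all 6 libraries Ighv14-1 was the lowest of the 4 genes.

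**Figure D1:**
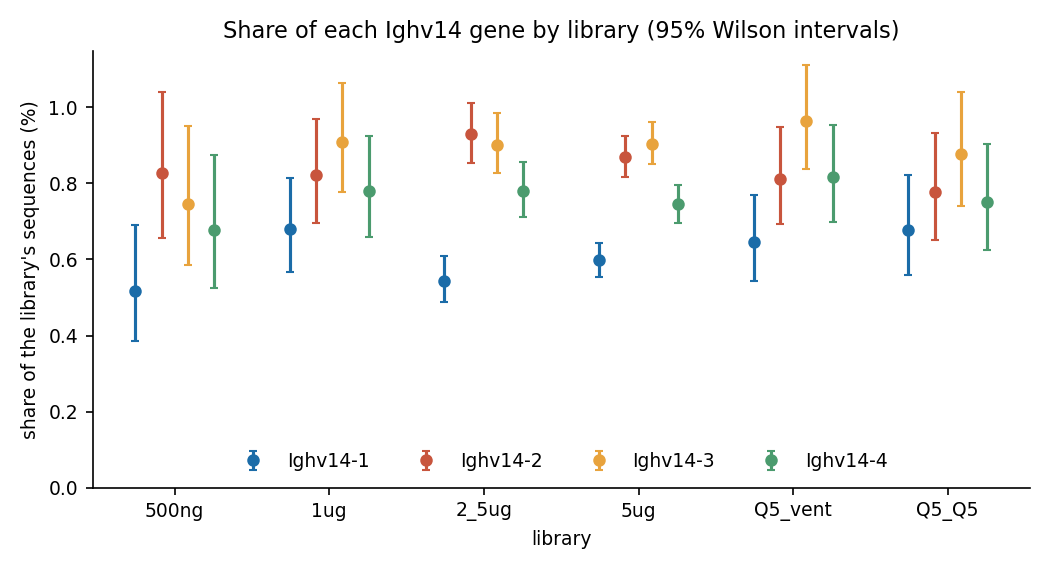
Share of each Ighv14 gene among the sequences of each library (y axis, percent), with 95% Wilson intervals as bars and 1 point per gene and library. Ighv14-1 was the lowest gene in all 6 libraries, between 0.517% and 0.680%, and the intervals are widest in the 500ng library.

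The comparison across starting DNA asked whether the amount changes what is recovered. In 5ug over 500ng the family's share ratio was 1.12 (interval 0.989 to 1.28), with ratios of 1.16 for Ighv14-1, 1.05 for Ighv14-2, 1.21 for Ighv14-3 and 1.10 for Ighv14-4. A V gene was called where its ratio was at least 1.5-fold either way with an interval outside 1. Genes were tested where both libraries together held 100 or more of their sequences, and 0 of the 4 family genes were called. Over all 107 V genes tested, 0% were called higher and 0.935% lower. The family's ratio turned below 1 in 5ug over 1ug, at 0.976 (interval 0.893 to 1.07). In Q5_Q5 over Q5_vent the family's ratio was 0.953 (interval 0.847 to 1.07), and the genes lay between 0.910 (Ighv14-3) and 1.05 (Ighv14-1). Again 0 of the 4 genes were called, beside 0% higher and 0% lower among 84 V genes. The family's interval in the first pair leaves room for a rise of up to 1.28-fold, and in the second for a fall to 0.847-fold.

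Ighv14 genes were more frequent among productive than among out-of-frame joins. The family made up 3.67% of the 167455 productive joins and 1.62% of the 50909 out-of-frame joins, a ratio of 2.27 (interval 2.11 to 2.44). By library the ratio was 2.15 in 500ng, 2.65 in 1ug, 2.13 in 2_5ug, 2.35 in 5ug, 1.89 in Q5_vent and 2.49 in Q5_Q5. Its interval lay above 1 in 6 of 6 libraries. The labels do not say whether these 6 readings come from separate mice, so they were not counted as independent replicates.

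The 4 genes did not share 1 ratio. Among productive joins Ighv14-3 (1.06%) and Ighv14-2 (1.05%) led, with Ighv14-4 at 0.831% and Ighv14-1 at 0.724%. Among out-of-frame joins the order was different: Ighv14-4 was the most frequent at 0.579% (295 joins), then Ighv14-3 at 0.460% (234), Ighv14-2 at 0.342% (174) and Ighv14-1 at 0.236% (120). The ratio was thus 3.08 for Ighv14-2 (interval 2.63 to 3.59), 3.07 for Ighv14-1 (2.55 to 3.70), 2.3 for Ighv14-3 (2.01 to 2.64) and 1.43 for Ighv14-4 (1.26 to 1.62). Ighv14-2 and Ighv14-1 ranked 4th and 5th of 113 V genes with at least 100 such joins, Ighv14-3 ranked 19th and Ighv14-4 52nd.

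By the same call rule 3 of the 4 genes were called higher and 0 lower, where 42.5% of all V genes were called higher and 41.6% lower, around a median ratio of 1.17. Most V genes were thus called in one direction or the other. The ratio of Ighv14-4 lay close to the 1.5-fold threshold, and reached 1.56 when calls that could be Ighv14-1 or Ighv14-4 were counted as Ighv14-4.

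Differences between family genes were larger than the counting error. The ratio of Ighv14-2 was 2.15 times that of Ighv14-4 (interval 1.76 to 2.62), that of Ighv14-1 was 2.14 times (1.71 to 2.68), and that of Ighv14-3 was 1.61 times (1.34 to 1.94). Ighv14-2 exceeded Ighv14-3 by 1.33-fold (interval 1.09 to 1.64). Ighv14-1 and Ighv14-2 could not be told apart, at 0.998 (0.782 to 1.27). With calls resolved by the V gene end the ratios were 3.12 for Ighv14-1, 3.12 for Ighv14-2, 2.3 for Ighv14-3 and 1.43 for Ighv14-4, in the same order as by first call.

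The ratio of Ighv14-4 was 1.33 in 500ng, 1.69 in 1ug, 1.28 in 2_5ug, 1.58 in 5ug, 1.32 in Q5_vent and 1.14 in Q5_Q5. It lay above 1 in 6 of 6 libraries, with its interval above 1 in 3. The ratio of Ighv14-2 was 4.11, 2.65, 2.54, 3.21, 2.95 and 8.16 in the same order, and lay above that of Ighv14-4 in each library. The value of 8.16 in Q5_Q5 rests on 4 out-of-frame joins and has an interval of 3.01 to 22.1.

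**Figure D2:**
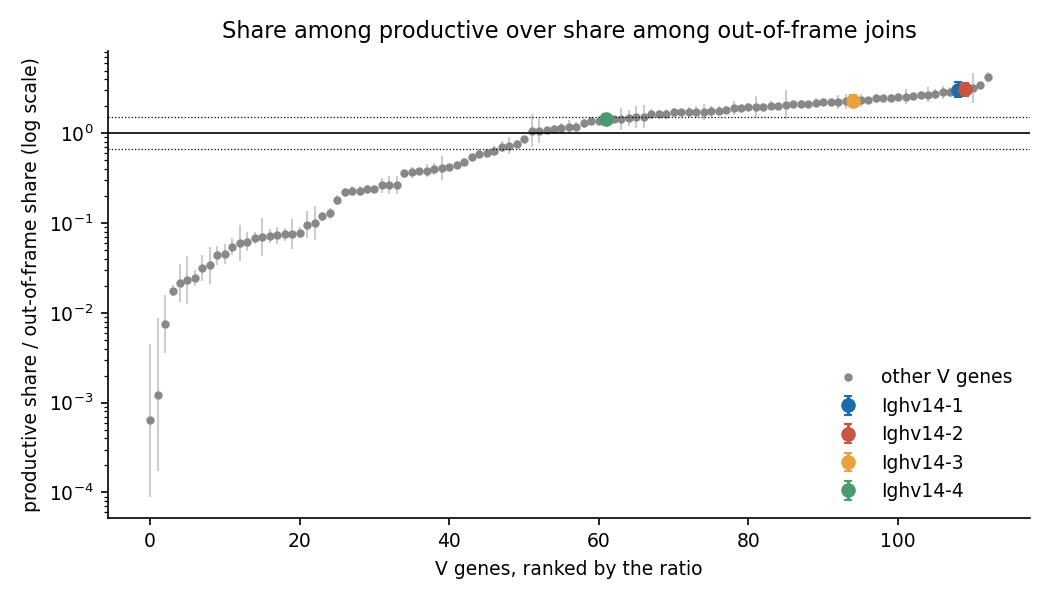
Ratio of each V gene's share among productive joins to its share among out-of-frame joins (log y axis), for 113 V genes ranked from low to high, pooled over 6 libraries; bars are 95% intervals, the solid line is a ratio of 1 and the dotted lines are 1.5-fold either way. Ighv14-2 (3.08) and Ighv14-1 (3.07) lie near the top, Ighv14-3 (2.3) below them and Ighv14-4 (1.43) near the middle.

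Read as a share of each gene's own joins, 85.9% of family sequences were productive (interval 85.1% to 86.7%), against 72.8% for all other V genes. The values were 88.8% for Ighv14-1, 88.8% for Ighv14-2, 86.1% for Ighv14-3 and 80.1% for Ighv14-4. In-frame joins that were not productive, for example through a stop codon, made up 2.90% of the family's 6321 in-frame joins (interval 2.51% to 3.34%) and 5.87% of those of the other V genes. The other V genes include some that were seldom productive, such as Ighv5-2 (193 productive and 3327 out-of-frame joins) and Ighv3-2 (1 and 476). The part of such genes in both differences was not tested.

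The V genes next to the family genes had mostly lower ratios. Ighv7-1, an annotated pseudogene on the D-proximal side of Ighv14-1, had a ratio of 0.221, and Ighv4-1 on its other side 0.421. Beside Ighv14-2, Ighv11-1 had 0.00755 and the pseudogene Ighv4-2 0.0437. Beside Ighv14-3, Ighv11-2 had 0.227 and Ighv9-1 2.22, the latter close to Ighv14-3 itself at 2.3. Beside Ighv14-4, the annotated pseudogene Ighv7-3 had 1.29 and Ighv3-3 0.0547. Of these 8 neighbours, Ighv9-1 and Ighv7-3 lay above 1 and the other 6 below it. Over all 113 V genes compared, ratios above 1 went down to the gene ranked 62nd (Ighv1-37, 1.06).

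J gene use was compared with that of all V genes outside the family, separately for productive and out-of-frame joins. In productive joins the family used Ighj3 in 27.9% against 23.0% of other joins (difference 4.95 points, interval 3.81 to 6.09), and Ighj1 in 14.7% against 19.9% (a fall of 5.19 points, interval -6.10 to -4.28). The family was above the other V genes for Ighj3 and below them for Ighj1 in 6 of 6 libraries. Ighj2 stood at 30.9% against 28.5% and Ighj4 at 26.5% against 28.6%, but both differences had intervals that included 0 once sequences with an unclear primer tag were left out (0.495 points and -0.914 points), and that for Ighj2 also without the 5ug library (1.13 points).

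The Ighj3 excess was concentrated in Ighv14-4 and Ighv14-1. In productive joins Ighv14-4 used Ighj3 in 35.2% (12.2 points above the other V genes, interval 9.68 to 14.7), Ighv14-1 in 30.1% (7.16 points, 4.57 to 9.75), Ighv14-2 in 25.2% (2.26 points, 0.216 to 4.29) and Ighv14-3 in 23.4% (0.436 points, -1.55 to 2.42). Thus 3 of 4 family genes were called higher for Ighj3, where 22.9% of the 96 V genes with at least 100 productive joins were called higher and 37.5% lower. With calls resolved by the V gene end, 605 productive joins of Ighv14-1 remained and 31.6% of them used Ighj3 (8.61 points above the other V genes, interval 4.90 to 12.3). Ighv14-2 then stood at 25.4% of 2072 joins (2.43 points, 0.543 to 4.31). Ighv14-4 had the 4th highest Ighj3 share by first call of the 96 and Ighv14-1 the 12th highest. The call for Ighv14-2 had an interval that included 0 without 1ug (2.11 points) and without 2_5ug (1.55 points).

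By library, the productive Ighj3 share of Ighv14-4 was 23.4% in 500ng, 32.7% in 1ug, 33.2% in 2_5ug, 37.3% in 5ug, 36.2% in Q5_vent and 34.1% in Q5_Q5. The 500ng value rests on 47 joins. In the same order Ighv14-3 had 24.1%, 20.0%, 22.4%, 23.8%, 21.4% and 31.0%. Ighv14-4 was the higher of the pair in 5 of 6 libraries, all but 500ng.

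Ighv14-1, Ighv14-2, Ighv14-3 and Ighv14-4 used Ighj1 in 17.5%, 14%, 13.5% and 14.8% of productive joins, so 4 of 4 were called lower (over all 96 V genes 33.3% were called lower and 28.1% higher). For Ighj4 the genes parted: Ighv14-4 (21.9%) and Ighv14-1 (23.3%) were lower than the other V genes, Ighv14-3 (31.5%) was higher, and Ighv14-2 (27.3%) had an interval that included 0. Over all V genes 30.2% were called lower for Ighj4 and 30.2% higher. For Ighj2, Ighv14-2 (33.5%) and Ighv14-3 (31.6%) were called higher, against 29.2% of V genes called higher and 34.4% lower.

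**Figure D3:**
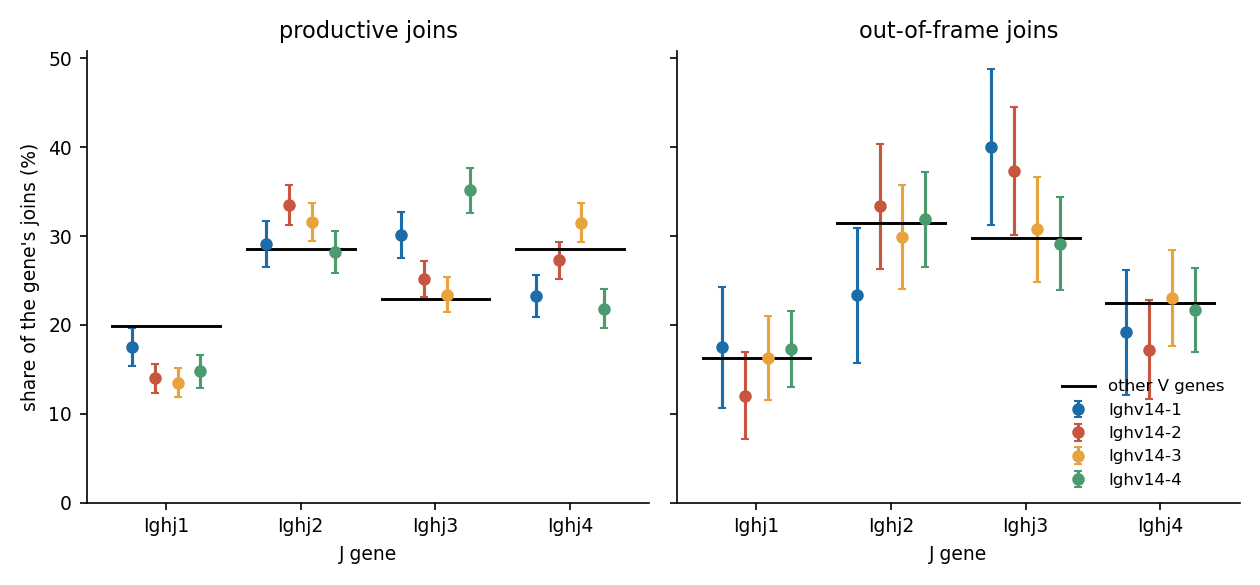
Share of each Ighv14 gene's productive (left) and out-of-frame (right) joins that used each J gene (y axis, percent), pooled over 6 libraries; bars are 95% intervals and the black lines are the shares over all V genes outside the family. Ighv14-4 (35.2%) and Ighv14-1 (30.1%) stand above the line of 23.0% for Ighj3 in productive joins, and the intervals are wide among the 120 to 295 out-of-frame joins of each gene.

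In out-of-frame joins the family used Ighj1, Ighj2, Ighj3 and Ighj4 in 15.9%, 30.4%, 32.9% and 20.8%, and the intervals of all 4 differences from the other V genes included 0. The Ighj3 difference of 3.15 points (interval -0.0900 to 6.39) lay at the edge and passed 0 under several settings. Ighj3 was used by 40.0% of the 120 out-of-frame joins of Ighv14-1 and 37.4% of the 174 of Ighv14-2, both called higher (of 102 V genes 5.88% were called higher and 6.86% lower), and by 29.2% of those of Ighv14-4 (interval of the difference -5.84 to 4.58 points). The call for Ighv14-1 was lost with calls resolved by the V gene end, where 30.5% of the 59 joins left used Ighj3 (0.728 points, interval -11.1 to 12.6), while Ighv14-2 stood at 38.6% of 202 (8.83 points, 2.09 to 15.6). In Ighv14-4 the Ighj3 share was 6.00 points higher in productive than in out-of-frame joins (interval 0.233 to 11.8), whereas over the other V genes it was 6.82 points lower. The difference between those differences was 12.8 points (interval 7.04 to 18.6). These values leave out the calls that could be Ighv14-1 or Ighv14-4, which are counted in Ighv14-1. Over all calls led by Ighv14-1*01 or Ighv14-4, which include them, the Ighj3 share was 2.43 points higher in productive joins (interval -2.58 to 7.44). The difference from the other V genes was then 9.25 points (interval 4.22 to 14.3).

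The family genes can also be set side by side by their shared V end, a split chosen after the data were seen. Calls led by Ighv14-1*01 or Ighv14-4 (ACTACA) used Ighj3 in 33.7% of 2291 productive joins, and calls led by Ighv14-2, Ighv14-3 or Ighv14-1*02 (GCTAGA) in 24.5% of 3847. The difference was 9.24 points (interval 6.87 to 11.6). It was 3.19 points in 500ng, 7.91 in 1ug, 5.86 in 2_5ug, 11.3 in 5ug, 12.0 in Q5_vent and 7.65 in Q5_Q5, all in 1 direction. In out-of-frame joins the 2 ends had 31.3% and 34.4% (interval of the difference -9.57 to 3.29). The productive over out-of-frame ratio of the GCTAGA end was 2.68 and that of the ACTACA end 1.80, a 1.49-fold difference (interval 1.29 to 1.73).

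Among D families, the family leaned towards DFL16, the D genes with the longest coding stretch. DFL16 was called in 44.2% of productive family joins against 39.8% of the others (4.40 points, interval 3.13 to 5.66), above the other V genes in 6 of 6 libraries. Ighv14-4 (46.9%), Ighv14-1 (46.5%) and Ighv14-2 (44.1%) were called higher, and Ighv14-3 (40.7%) had an interval that included 0, so 3 of 4 genes were called higher where 21.9% of V genes were and 27.1% were called lower. With calls resolved by the V gene end Ighv14-1 stood at 45.8% (5.97 points, interval 1.99 to 9.95). DQ52, a short D gene next to the J cluster, was called in 5.20% against 7.0% (a fall of 1.80 points, interval -2.37 to -1.24), lower in 6 of 6 libraries and in 3 of 4 genes (over all V genes 21.9% were called lower and 13.5% higher). DSP2 stood at 39.0% against 39.6% (interval -1.83 to 0.661). The 2 rare families Ighd5 and Ighd6 were called in 0.261% and 0.489%, against 0.397% and 0.570%.

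DST4 was called in 5.67% of family joins against 6.50% (-0.828 points), but the interval included 0 without the 5ug library (-0.423 points), and the difference was 0.0538 points with 1 count per deposited clonotype. Joins without a D call made up 5.13% against 6.10% (-0.965 points, interval -1.53 to -0.400). In out-of-frame joins DFL16 was at 41.2% against 38.4% (interval -0.619 to 6.16), and the intervals of DSP2, DST4, DQ52 and joins with no D call also included 0. Ighv14-3 alone of the 4 genes was called higher for DFL16 there, at 45.3% (over all V genes 23.5% were called higher and 7.84% lower).

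CDR3s of the family were short. Productive family joins averaged 36.3 bases against 38.0 for the other V genes, a difference of -1.66 bases (interval -1.82 to -1.50). Ighv14-4 was the shortest at 35.7 ± 6.31 bases (SD over 1391 joins, -2.24 bases), the 4th shortest of 96 V genes, followed by Ighv14-2 at 36.3 ± 6.36 (-1.70), Ighv14-1 at 36.6 ± 6.21 (-1.37) and Ighv14-3 at 36.6 ± 6.33 (-1.35). With calls resolved by the V gene end Ighv14-1 averaged 35.9 bases (-2.03, interval -2.53 to -1.54) and Ighv14-2 36.4 (-1.55, interval -1.82 to -1.27), so the order of these genes turned. All 4 were called shorter by either assignment, where 33.3% of V genes were and 31.2% were called longer. The family mean was 36.0 bases in 500ng, 36.2 in 1ug, 36.2 in 2_5ug, 36.3 in 5ug, 36.4 in Q5_vent and 36.9 in Q5_Q5, below that of the other V genes (37.9 to 38.0) in 6 of 6 libraries. Out-of-frame joins gave a like difference, 36.6 against 38.5 bases (-1.96, interval -2.44 to -1.48).

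**Figure D4:**
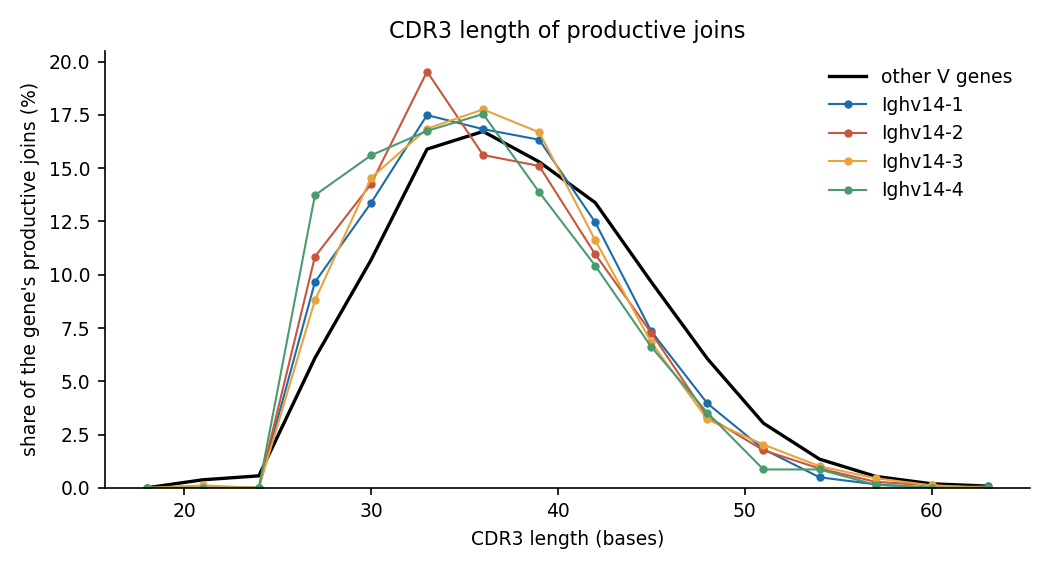
Distribution of CDR3 length in productive joins: share of each gene's joins (y axis, percent) at each length in bases (x axis), for the 4 Ighv14 genes and for all V genes outside the family (black), pooled over 6 libraries. The family's curves lie to the left of the black one and stop at 27 bases apart from 2 joins.

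The distribution had a sharp lower edge. Of 6138 productive family joins, 2 were shorter than 25 bases, and 655 (10.7%) had 27 bases. None of 822 out-of-frame family joins was shorter than 25 bases (which leaves room for a share of 0.365% at most), and 77 (9.37%) had 25 to 27. The other V genes had 0.940% of productive joins under 25 bases, and 1249 of those 1517 joins came from Ighv6-3, Ighv6-6, Ighv10-1 and Ighv10-3. No source used here names the step that set this edge, and its part in the length difference was not tested. With joins of at least 25 bases on both sides the family's difference was -1.80 bases in productive and -2.10 in out-of-frame joins.

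The shorter CDR3 came from several pieces. In productive joins the mean difference from the other V genes was -1.13 bases for the V piece, -0.488 for the bases between V and D (NP1) and -0.615 for the J piece, and 0.50 for D bases and 0.0761 for the bases between D and J. In out-of-frame joins the difference was -1.90 bases for the V piece and -0.413 for NP1, and the intervals for the D and J pieces included 0. The out-of-frame V piece varied more in the other V genes (SD 5.04 bases) than in the family (SD 1.97). The other V genes include Ighv1-87, whose 586 out-of-frame CDR3s averaged 65.0 bases. The part of such genes in the difference was not tested. The family's productive CDR3 was also shorter within each J gene, with differences of -1.80 bases with Ighj1, -1.43 with Ighj2, -1.34 with Ighj3 and -1.01 with Ighj4.

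The V end itself was kept to different degrees. Among productive joins with a single-gene call, all 6 V bases of the CDR3 remained in 63.8% for Ighv14-2, 58.1% for Ighv14-3, 44% for Ighv14-4 and 40.6% for Ighv14-1. A loss of exactly 1 base was seen in 25.7% of Ighv14-4 and 21.9% of Ighv14-1 joins, and in 15.5% and 18.7% of Ighv14-2 and Ighv14-3 joins. A base added at random can match the germline base and is then counted as kept. In out-of-frame joins, which encode no chain, the full end remained in 55.8% for Ighv14-2, 55.4% for Ighv14-3, 39.0% for Ighv14-4 and 42.1% for Ighv14-1.

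By V end, 43.1% of ACTACA and 60.7% of GCTAGA productive joins were untrimmed, a difference of -17.6 points (interval -20.1 to -15.0). It ran from -9.64 points in 500ng to -21.7 in Q5_Q5 and had 1 direction in 6 of 6 libraries. Other V genes, each with its own germline end, were untrimmed in 69.0% of productive and 54.9% of out-of-frame joins. All 4 family genes were called lower than that in productive joins (over all V genes 42.7% were called lower and 51% higher), and in out-of-frame joins Ighv14-1 and Ighv14-4 were (36.3% lower, 57.8% higher). With calls resolved by the V gene end the out-of-frame interval for Ighv14-1 included 0 (-12.6 points, interval -25.3 to 0.164).

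**Figure D5:**
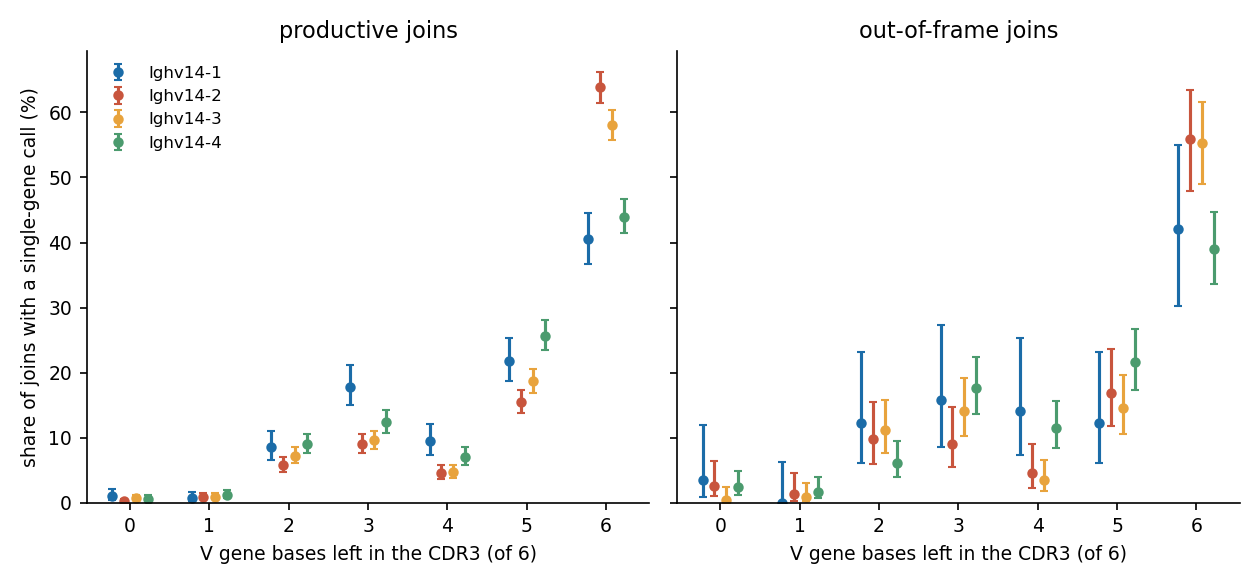
Number of V gene bases, out of 6, left in the CDR3 of productive (left) and out-of-frame (right) joins with a single-gene call (x axis), as a share of each gene's joins (y axis, percent) with 95% Wilson intervals. The full end remained in 63.8% and 58.1% of productive Ighv14-2 and Ighv14-3 joins and in 40.6% and 44% of Ighv14-1 and Ighv14-4 joins, and the order of the pairs is the same on the right.

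The germline end carried through to the encoded loop. Threonine-threonine opened 61.6% of productive Ighv14-1 CDR3s and 68.9% of those of Ighv14-4 (single-gene calls), and alanine-arginine opened 72.4% for Ighv14-2 and 68.3% for Ighv14-3. Net charge, counted as lysines and arginines minus aspartates and glutamates, averaged -0.728 with the ACTACA end and -0.461 with the GCTAGA end, against -0.339 in other V genes. When the first 2 residues were left out, the order turned: -0.784 with ACTACA and -1.17 with GCTAGA (difference 0.384, interval 0.328 to 0.440), against -1.18 in the other V genes. Without those residues Ighv14-4 averaged -0.722 and Ighv14-1 -0.955 (-0.896 with calls resolved by the V gene end), both called higher (over all V genes 30.2% were called higher and 36.5% lower), and for Ighv14-2 (-1.14) and Ighv14-3 (-1.19) the interval of the difference included 0. Tyrosine averaged 21.7% of CDR3 residues in the family against 20.8% in the other V genes. Ighv14-1 (21.8%), Ighv14-2 (22.1%) and Ighv14-3 (22.0%) lay above the other V genes. The share of all V genes that did so is not given here, so no trait of the family is read from it. Ighv14-4 stood at 20.7% (interval of the difference -0.648 to 0.364 points).

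V mismatches to the germline call were few. At least 1 mismatch was present in 6.01% of productive family joins and 6.30% of the others (interval of the difference -0.892 to 0.321 points). In out-of-frame joins the family had 7.29% against 11.4% (-4.06 points, interval -5.86 to -2.26), and for 3 or more mismatches 0.486% against 4.25%. Between polymerases, family sequences with at least 1 mismatch made up 3.66% in Q5_Q5 (17 of 464) and 6.81% in Q5_vent (43 of 631), a ratio of 0.538 (interval 0.311 to 0.931) beside 0.581 in other V genes.

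Profiles of J and D shares over all joins were compared between the family genes and the 69 other V genes with at least 1000 sequences. The distance is 0.5 times the summed absolute differences of the J shares and of the D family shares, in percentage points. Outside the family the nearest to Ighv14-4 were Ighv1-67 (7.01 points), Ighv8-2 (9.50) and Ighv1-9 (10.7), and to Ighv14-1 Ighv1-67 (7.70), Ighv1-11 (7.98) and Ighv1-26 (8.89). Ighv14-2 lay nearest to Ighv1-59 (5.88), Ighv1-26 (6.29) and Ighv1-64 (7.08), and Ighv14-3 to Ighv1-7 (5.01), Ighv1-54 (5.53) and Ighv1-72 (6.02). Within the family Ighv14-1 and Ighv14-4 were 4.52 points apart and Ighv14-2 and Ighv14-3 6.50, whereas Ighv14-3 and Ighv14-4 were 15.3 apart. The 339 calls that could be Ighv14-1 or Ighv14-4 are counted in Ighv14-1 here, and so are the 343 that named Ighv14-1*02 before Ighv14-2. All distances of Ighv14-1 are therefore by first call. Each profile pools productive and out-of-frame joins, whose mix differed between genes. Ighv1-67 had 218 productive and 848 out-of-frame joins, Ighv8-2 188 and 843, and Ighv1-11 101 and 1247. Ighv14-4 had 1391 and 295, and Ighv14-1 1212 and 120. In productive joins alone Ighj3 was used in 32.6% for Ighv1-67, 36.2% for Ighv8-2 and 6.93% for Ighv1-11. Ighv14-4 and Ighv14-1 stood at 35.2% and 30.1%. Distances within productive joins were not computed.

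Clones, defined as 1 V gene, J gene and CDR3 sequence, seldom recurred. Of 7020 family clones, 41 were found in at least 2 libraries (0.584%, interval 0.431% to 0.791%), against 0.788% for the other V genes, and these numbers depend on the depth of each library. The 3 that spanned the most libraries are shown as their CDR3 bases, with the bases from the V gene in capitals.

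Ighv14-2 with Ighj2: GCTAGAtcaggagattacgacttctac
Ighv14-3 with Ighj2: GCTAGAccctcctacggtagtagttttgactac
Ighv14-3 with Ighj4: GCTAGAggggggtcctatgctatggactac

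All 3 kept the whole V end and were productive. The Ighv14-2 clone had 14 sequences in 5 libraries, with 2 in 500ng, 2 in 1ug, 7 in 5ug, 2 in Q5_vent and 1 in Q5_Q5, and has a CDR3 of 27 bases with a DSP2 gene. The Ighv14-3 clone with Ighj2 had 8 sequences in 5 libraries and carries a DFL16 gene in 33 bases. The Ighv14-3 clone with Ighj4 had 6 sequences in 4 libraries, and no D gene was called in its 30 bases.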

How the data were processed

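Each of the 6 libraries has 1 deposited file with a row per VDJ-seq sequence. Bowtie2 2.3.2, Trim Galore 0.4.4 and mm10 (GRCm38) are named in the submitters' processing notes. The caller of the genes was not given in the sources used here. The columns, per the file headers, are V, D and J calls, frame and productive flags, a CDR3, a clonotype and V identity as a fraction. The trailing number of each sequence name was taken as its read count, an inference from the values (3 or more throughout).

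The first V gene called was counted. Joins were split by the deposited flags into productive, out-of-frame and in-frame without a product. Shares carry Wilson, ratios Katz and differences normal 95% intervals, which cover counting error, and no p-value was computed with 1 library per group. Intervals were tested on simulated data of independent draws, which hold counting error only. For differences these draws did not cover genes with few joins. A gene was called for a ratio of at least 1.5-fold with the interval outside 1, and for other measures with the interval of the difference outside 0 (at least 100 sequences each). For that difference, family genes were set against the V genes outside the family, and each other V gene against all V genes but itself. In the library ratios a V gene at 0 was set to 3 counts.

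Named are all family genes, their neighbours, the 3 nearest J and D profiles, every J gene and D family, and the 3 clones in most libraries. Members, lists and tests were chosen with earlier results of these data known. Alternatives were single-gene calls, 1 count per clone or clonotype, more reads, productive joins, other thresholds, equal weights and leaving out libraries. Names and coordinates are RefSeq's for GRCm38.p6. Exons were read from the deposited sequences. SciPy 1.17.1, NumPy 2.4.6, matplotlib 3.10.9 and pandas 2.3.3 were run in Python 3.11.15.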

Additional observations from a re-analysis of the deposited data

Results flagged for a closer look

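Effects of the family and of each gene, measured against the other V genes, were compared between 5ug and 500ng and between Q5_Q5 and Q5_vent. Of 90 such comparisons, 5 had an interval outside 0 (5.56%), where counting error alone would give about 5%, and these 5 are given here.

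In productive joins of Ighv14-4 the CDR3 difference from the other V genes was -0.115 bases in Q5_Q5 (88 joins) and -2.68 bases in Q5_vent (127 joins), which differ by 2.57 bases (interval 0.845 to 4.29). The other 4 were in out-of-frame joins and rest on few joins in the smaller library, where a normal interval is too narrow. The Ighj3 difference was 39.1 points higher in 5ug than in 500ng for Ighv14-1 (interval 26.5 to 51.7), with 4 joins in 500ng, and 21.3 points higher for Ighv14-4 (interval 1.66 to 41.0), with 11 joins. For Ighv14-2, with 4 joins in Q5_Q5, the change from Q5_vent to Q5_Q5 was -33.6 points for Ighj1 (interval -58.4 to -8.87) and -54.0 points for DFL16 (interval -80.3 to -27.8).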

How the results depend on the processing

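No paired analysis was possible because each group has 1 library. The family's ratio of productive to out-of-frame share, its Ighj3 and Ighj1 difference, its DFL16 and DQ52 difference and its CDR3 difference in productive joins kept their direction and an interval outside the null in every alternative run. The first ranged from 1.96 with 1 count per deposited clonotype to 2.36 with a trailing number of at least 5. Leaving out a library in turn gave 2.19 to 2.32 for that ratio and -1.70 to -1.60 bases for the productive CDR3.

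The family's 5ug over 500ng ratio was 0.966 with 1 count per deposited clonotype, 1.15 with a trailing number of at least 5 (interval 1.00 to 1.32) and 0.976 as 5ug over 1ug. In productive joins the Ighj2 difference was 0.495 points and that of Ighj4 -0.914 points without unclear primer tags. With 1 count per deposited clonotype Ighj4 was at -1.01, DSP2 at -4.18 and DST4 at 0.0538 points, the last with its sign turned. DST4 was at -0.488 points with equal weight per library. Without each library in turn Ighj2 ranged from 1.13 to 2.89 points and DST4 from -1.05 to -0.423.

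In out-of-frame joins, 1 count per deposited clonotype gave -3.78 points for Ighj2 and 4.02 for Ighj3, and a trailing number of at least 5 gave 3.99 for Ighj3, -3.26 for Ighj4 and -1.48 for DST4, all with intervals outside 0. Leaving out a library gave 2.44 to 3.58 points for Ighj3 and -1.29 to -1.02 for DST4. V genes called in 5ug over 500ng numbered 0 with at least 500 sequences, 4 at the lower of the alternative fold thresholds and 0 at 2-fold, and in Q5_Q5 over Q5_vent 2 at the lower threshold. The causes were not tested. The 45 Ighv14-1 sequences in 500ng and the 120 to 295 out-of-frame joins per gene limit what could be seen.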
